A study of Homo sapiens with 6 samples.

Results

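MYC binding was examined at 8 genes of translation initiation, EIF4E, EIF4G1, EIF4A1, EIF4EBP1, EIF2S1, EIF3B, EIF5A and EIF6. The genes were taken by name, and a MYC peak was given to a gene when its summit, the position of highest signal, lay within 5 kb of the gene's start in hg19. The peaks came from chromatin immunoprecipitation sequencing (ChIP-seq) of ONS76, an established human medulloblastoma cell line. The labels give all libraries the engineered genotype Inducible SOX2, while the ChIP methods name the cells only as ONS76. According to the study's text, SOX2 was not elevated for this experiment. The labels assign 3 libraries to the MYC antibody Y69 and 3 to normal IgG, an antibody with no specific target. A peak list for each MYC library was used here, and the IgG libraries were not analysed as samples. Per the study's methods, immunoprecipitations from a single batch of chromatin were combined. No source used here says that the replicates are separate cultures, so each SD describes the spread between these libraries, which may be technical. Replicates 1, 2 and 3 gave lists of 24899, 16809 and 17298 peaks, of which 9, 10 and 10 were assigned to the 8 genes. Replicate 1 had the highest genome-wide background, 7.79 fragments at a site against 5.84 in replicate 2 and 4.76 in replicate 3. These levels were recovered from the peak lists, and read counts were not examined here.

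MYC is a transcription factor that binds DNA as a dimer with MAX, with a preference for the E-box CACGTG, and is known for driving genes of ribosome production and protein synthesis. Translation of most messenger RNAs begins when the complex eIF4F, made of the cap-binding protein eIF4E, the scaffold eIF4G and the helicase eIF4A, recruits the small ribosomal subunit. That subunit carries eIF3 and the initiator transfer RNA, which is delivered by eIF2. 4E-BP1, the product of EIF4EBP1, holds eIF4E away from the scaffold when growth signalling is low.

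The first question was whether each gene had a MYC peak at its start. All 8 genes had at least 1 peak within 5 kb in 3 of 3 replicates. As a background, 7.09%, 4.88% and 4.98% of all bases lay within 5 kb of a summit in replicates 1, 2 and 3, and 3.88% did so in all 3 lists, counted between the first and last summit of each chromosome. This background covers all bases and not gene starts, as the annotation at hand is of hg38. The share of all gene starts with a peak was therefore not determined, and the count is not shown to be particular to initiation factors. With a summit required within 1 kb of the start in every replicate, 5 genes remained, namely EIF4G1, EIF4A1, EIF2S1, EIF3B and EIF6. No background was determined at 1 kb, and the shares of bases above hold for 5 kb only. The farthest summit inside the limit lay 2408 bp from its start, at EIF4E. Just outside it, EIF6 had summits 6805 bp, 6826 bp and 6850 bp downstream in replicates 1, 2 and 3, and EIF5A had a summit 8481 bp downstream in replicate 3.

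Strength was read as fold enrichment, the fragments at the summit divided by the local background, each with 1 added first, as the authors' peak caller gives it. The median over the 8 genes of the mean fold enrichment was 13.1 (SD of the 3 replicate medians 1.40). Over all peaks the median was 4.15, 4.49 and 4.78 in replicates 1, 2 and 3. The median gene exceeded 95.4% of the peaks of its list (SD of the 3 replicate medians 1.37). The peaks of 7 genes were within the highest 10% of their list in all 3 replicates, and EIF4E was the exception. EIF3B alone was within the highest 1% in every replicate under this measure. These ranks set each gene's strongest place against all peaks of a list, wherever they lie. The ranks of peaks at gene starts in general were not determined, so high ranks are not shown to be particular to initiation factors.

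**Figure D1:**
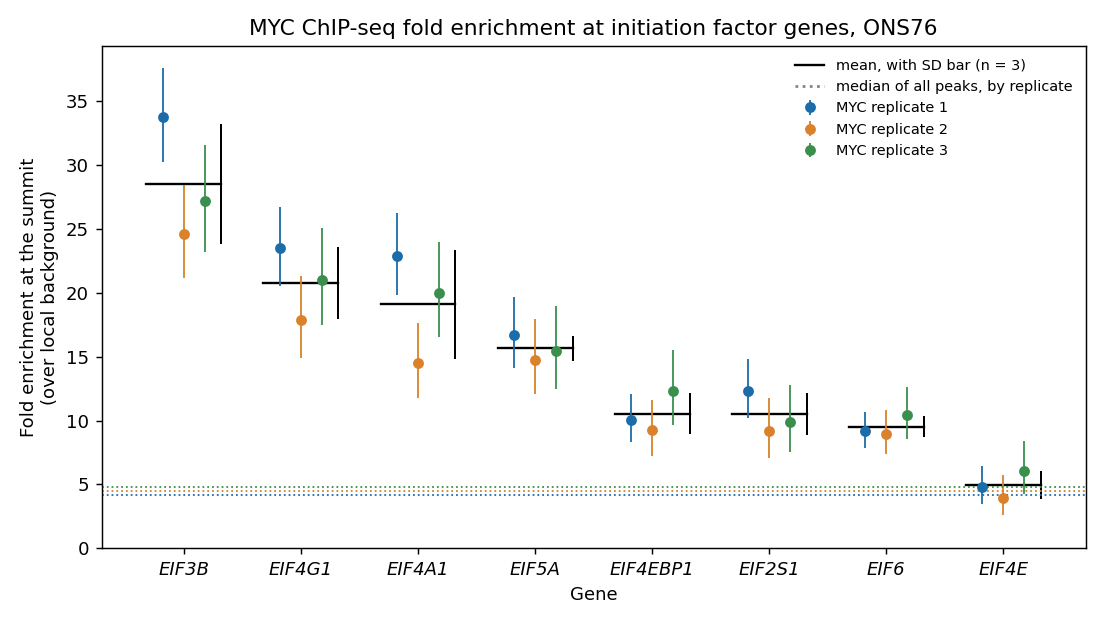
Fold enrichment at the strongest MYC place of each gene (y axis, linear, fold over local background), with genes ordered by their mean along the x axis. Coloured points are the 3 MYC replicates with 95% exact Poisson intervals for counting error, black lines are the mean with its SD (n = 3), and dotted lines are the median of all peaks in each list. EIF3B had the highest mean (28.5), and the points of EIF4E, from 3.95 to 6.08, sat around the dotted lines.

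Promoter sequence was read next, to see which genes carry the E-box at their start. RefSeq promoters in GRCh38.p14, from 250 bases before to 50 bases after a start, were found for 7 of the 8 genes. CACGTG, a palindrome that reads the same on both strands, was present in the promoters of EIF4E and EIF4G1. A listed promoter with CACGTG was present for 8.77% of 27305 genes, so the share among these genes rests on a count of 2 of 7. When CACGCG on either strand was searched in addition, EIF5A and EIF6 also had a match, giving 4 of 7 genes against 20.3% of all genes. EIF5A has 6 listed promoters, EIF4G1 has 3 and EIF6 has 2, and a gene with more promoters has more sequence in which to find a match. In the wider set of initiation genes, 34 of 41 were in the table and 9 of them (26.5%) had CACGTG in a promoter. These genes have no MYC values here, because their hg19 starts were not used.

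The 250 bases before the start are shown for EIF4E and EIF4G1, which each hold a pair of CACGTG boxes, for EIF3B, the gene with the strongest MYC peak and no such box, and for EIF6, which holds the variant CACGCG on the opposite strand, read here as CGCGTG. They are written 5′ to 3′ on the strand of the gene (RefSeq, GRCh38.p14), and capitals mark these matches. They were taken from chr4:98929134-98929383 on the minus strand, chr3:184314356-184314605 on the plus strand, chr7:2354577-2354826 on the plus strand and chr20:35284718-35284967 on the minus strand.
EIF4E: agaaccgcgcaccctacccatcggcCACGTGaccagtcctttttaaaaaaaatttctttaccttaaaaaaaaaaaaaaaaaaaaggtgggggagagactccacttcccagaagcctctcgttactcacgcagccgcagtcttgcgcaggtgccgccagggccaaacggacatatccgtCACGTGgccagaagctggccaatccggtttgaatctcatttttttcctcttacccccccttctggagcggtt
EIF4G1: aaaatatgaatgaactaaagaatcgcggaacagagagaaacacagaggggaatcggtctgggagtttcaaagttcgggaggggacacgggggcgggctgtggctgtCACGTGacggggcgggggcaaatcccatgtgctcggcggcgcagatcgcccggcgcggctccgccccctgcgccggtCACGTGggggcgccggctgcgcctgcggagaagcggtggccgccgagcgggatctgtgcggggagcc
EIF3B: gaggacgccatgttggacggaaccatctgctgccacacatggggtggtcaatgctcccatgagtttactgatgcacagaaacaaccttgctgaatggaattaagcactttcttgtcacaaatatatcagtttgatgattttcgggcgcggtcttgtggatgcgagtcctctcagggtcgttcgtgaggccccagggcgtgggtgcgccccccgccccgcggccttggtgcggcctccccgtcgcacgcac
EIF6: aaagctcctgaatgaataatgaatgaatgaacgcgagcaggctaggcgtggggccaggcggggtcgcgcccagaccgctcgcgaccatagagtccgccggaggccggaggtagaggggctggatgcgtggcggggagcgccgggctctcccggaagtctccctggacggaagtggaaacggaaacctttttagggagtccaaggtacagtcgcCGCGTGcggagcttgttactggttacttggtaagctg

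Counted from the listed start, the boxes of EIF4E began at base -225 and base -72, and those of EIF4G1 at base -144 and base -67. The match of EIF6 began at base -37. Over the whole 300 bases, the promoter of EIF3B had a GC content of 61% and those of EIF4E and EIF2S1 had 50.7% and 51.7%, against a median of 58.7% over 35116 promoters. The strongest MYC peak belonged to EIF3B, without CACGTG in this window, and the weakest to EIF4E, with it. EIF4G1, the other gene with CACGTG, went the other way, with a mean fold enrichment of 20.8, below only EIF3B at 28.5. A relation between the box and peak strength was not tested. The sequences are of another build than the peaks, so the boxes were not placed relative to the summits, and a match is a description of the letters and not of a bound site.

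EIF4G1 and EIF4A1, which encode the scaffold and the helicase of eIF4F, were among the strongest. At EIF4G1, fold enrichment was 23.5, 17.9 and 21.0 in replicates 1, 2 and 3, on 231, 123 and 120 fragments. The mean was 20.8 ± 2.82 (SD, n = 3), and this exceeded the mean at 98.9% of the 12499 places found in all 3 replicates. Its summits lay 5 bp, 29 bp and 34 bp downstream of the start, and the merged place ran on chromosome 3 from 184031954 to 184033179 (hg19). The 3 summits were therefore close to the start and spanned 29 bp. The peaks ran from -309 bp, -330 bp and -273 bp to 888 bp, 728 bp and 896 bp, reaching farther downstream than upstream.

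EIF4A1 had peaks at 2 separate places. The stronger had a fold enrichment of 22.9, 14.5 and 19.98, a mean of 19.1 ± 4.27 (SD, n = 3), with summits at -161 bp, -150 bp and -160 bp, upstream of the start. It lay on chromosome 17 from 7475608 to 7476297 (hg19). Replicate 2 was the lowest there, and its 95% Poisson interval of 11.8 to 17.6 did not reach that of replicate 1, from 19.8 to 26.3. These intervals cover counting error only, and fragments copied during library amplification are not independent. The second place, from 7476657 to 7477472, had summits 985 bp, 942 bp and 956 bp downstream of the start. Its fold enrichment was 8.99, 7.89 and 10.9, averaging 9.28 ± 1.54 (SD, n = 3). The first place was stronger by a factor of 1.83 to 2.54, in 3 of 3 replicates. The second would by itself exceed 89.7% ± 3.50 of its list (SD, n = 3). In RefSeq (GRCh38.p14), SENP3 and the read-through transcript SENP3-EIF4A1 reach within 1 kb of the EIF4A1 start, so the upstream place cannot be assigned to EIF4A1 alone.

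EIF4E, the gene of the cap-binding subunit and a textbook MYC target, had the weakest peaks of the 8. Fold enrichment at the strongest peak was 4.78 in replicate 1, 3.95 in replicate 2 and 6.08 in replicate 3, on 41, 26 and 34 fragments. The mean was 4.94 ± 1.07 (SD, n = 3). These peaks exceeded 61.0%, 35.5% and 69.7% of their lists, so they were ordinary in strength, and in replicate 2 below the list's median. No EIF4E peak covered the hg19 start. In replicate 1 a single peak of 1508 bp had its summit 2408 bp downstream, while replicate 2 had a summit at 1727 bp. Replicate 3 had summits at 1734 bp and 2394 bp as separate peaks, the latter with a fold enrichment of 3.47 on 19 fragments. The signal of replicate 1 thus ran over both positions seen in replicate 3. The merged place was on chromosome 4 from 99849198 to 99850705 (hg19). In GENCODE 44 (hg38), 9 of 11 EIF4E transcripts begin within 41 bp of each other. The position of that start in hg19 was not determined, and the hg19 start used here may lie upstream of it. All EIF4E distances, the absence of a peak over its start and its loss at the 1 kb limit hold for the start used here only.

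EIF4EBP1, whose product represses eIF4E, had a broad peak in each replicate. Widths were 1960 bp, 1963 bp and 2069 bp, wider than 99.3% ± 0.423 (SD, n = 3) of the peaks in their lists. The merged place, on chromosome 8 from 37887597 to 37889665 (hg19), covered the start in 3 of 3 replicates. Fold enrichment was 10.04, 9.24 and 12.3, averaging 10.5 ± 1.60 (SD, n = 3). The summit moved within this stretch, at 1320 bp and 1294 bp downstream in replicates 1 and 2 but at 503 bp in replicate 3. The width was therefore more alike between replicates than the summit. No sequence is given for EIF4EBP1.

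Of the factors that act with the small ribosomal subunit, EIF3B had the strongest peak of all 8 genes. EIF3B encodes a core subunit of eIF3. Its fold enrichment was 33.8, 24.6 and 27.2 in replicates 1, 2 and 3, on 335, 181 and 167 fragments, a mean of 28.5 ± 4.72 (SD, n = 3). It ranked 25 of 24899, 54 of 16809 and 50 of 17298 peaks. The summits lay upstream of the start, at -20 bp, -43 bp and -16 bp, and the place on chromosome 7 from 2393398 to 2395314 (hg19) covered the start in every replicate. The peaks began at -1077 bp, -1057 bp and -981 bp from the start, the farthest upstream reach among the 8 genes. In RefSeq (GRCh38.p14), SNX8 reaches within 1 kb of the EIF3B start, so this place cannot be assigned to EIF3B alone.

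EIF2S1 encodes the alpha subunit of eIF2, whose phosphorylation slows initiation under stress. Its fold enrichment was 12.3, 9.21 and 9.90, a mean of 10.5 ± 1.64 (SD, n = 3), with summits 30 bp, 45 bp and 48 bp downstream of the start. The place was on chromosome 14 from 67826488 to 67827347 (hg19). Its peaks exceeded 95.7%, 90.9% and 90.8% of their lists, so the EIF2S1 peak was high in every replicate but well below that of EIF3B. In RefSeq (GRCh38.p14), ATP6V1D and GPHN reach within 1 kb of this start, so the place cannot be assigned to EIF2S1 alone.

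EIF5A, named as an initiation factor and known to act in elongation and termination, was bound mainly downstream of the start used here. The leading summits lay 1312 bp, 1357 bp and 1332 bp downstream, with a fold enrichment of 16.7, 14.8 and 15.5. The mean of 15.7 ± 0.996 (SD, n = 3) had a coefficient of variation of 6.37%, the lowest of the 8 genes. The place was on chromosome 17 from 7210277 to 7212122 (hg19). At the start itself, replicate 2 had a separate weak peak with its summit 143 bp downstream and a fold enrichment of 4.53 on 30 fragments. In replicate 1 a peak of 1846 bp covered both positions, and replicate 3 had no peak over the start. In GENCODE 44 (hg38), EIF5A transcripts begin at several sites, the last 1372 bp downstream of the first. Distances in hg38 were not carried over to hg19, so which of these starts the summit belongs to was not determined.

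EIF6 encodes a factor that binds the large ribosomal subunit and keeps it from joining the small subunit too early. Its fold enrichment was 9.17, 8.95 and 10.5, a mean of 9.53 ± 0.822 (SD, n = 3), with summits 243 bp, 267 bp and 268 bp downstream of the start. The place was on chromosome 20 from 33871342 to 33872920 (hg19). In RefSeq (GRCh38.p14), FAM83C and its antisense transcript FAM83C-AS1 reach within 1 kb of the start of EIF6. The place therefore cannot be assigned to EIF6 alone.

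**Figure D2:**
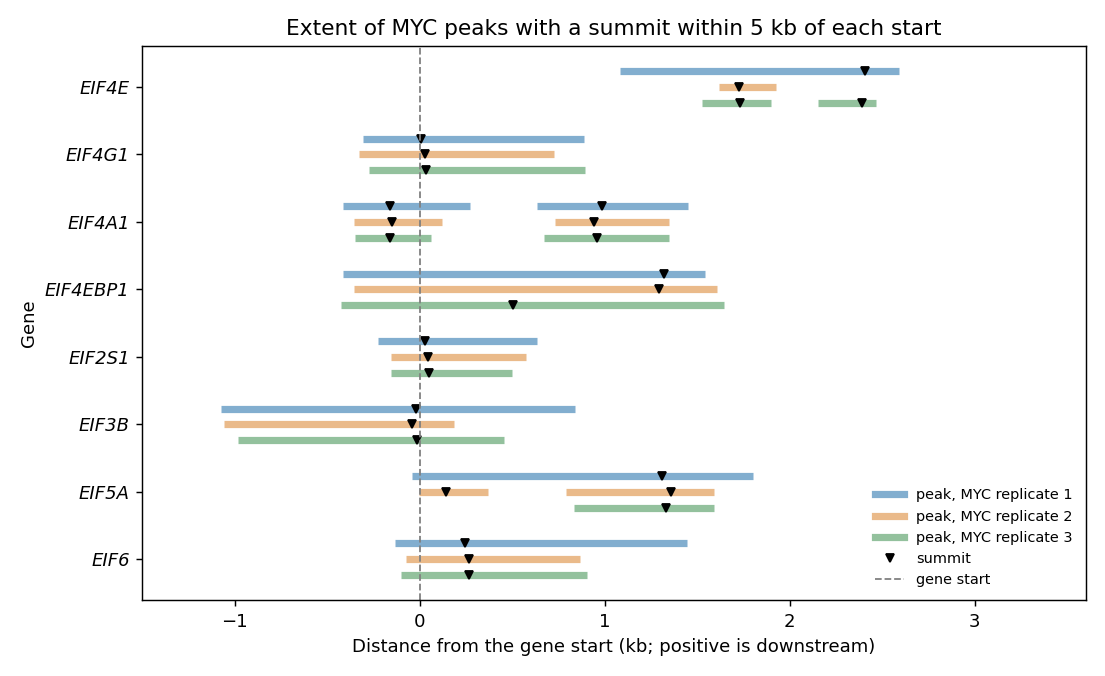
Extent of each MYC peak (coloured bars, 1 row per replicate) and its summit (triangles) relative to the hg19 gene start, in kb along the x axis, with positive values downstream on the strand of the gene. The peaks of EIF4G1, EIF4A1, EIF2S1, EIF3B and EIF6 had their leading summit within 300 bp of the start (dashed line), while those of EIF4E, EIF5A and EIF4EBP1 had it more than 1 kb from the start used here on average.

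Summit positions repeated closely where the peak was near the start. The mean distance was at most 300 bp at 5 genes, and their 3 summits spanned between 11 bp at EIF4A1 and 29 bp at EIF4G1. At EIF5A they spanned 45 bp although the summit lay more than 1 kb from the start. At EIF4E and EIF4EBP1 they spanned 681 bp and 817 bp. The leading peak covered the start in 19 of 24 cases, the exceptions being EIF4E in all 3 replicates and EIF5A in replicates 2 and 3. These cases pool genes and replicates, and the share of gene starts covered in general was not determined. The median over the genes of the mean distance was 208 bp.

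The order of the genes by mean fold enrichment was EIF3B, EIF4G1, EIF4A1, EIF5A, EIF4EBP1, EIF2S1, EIF6 and EIF4E, with the highest mean 5.78 times the lowest. Of the 28 possible pairs, 25 were in the same order in 3 of 3 replicates, and the replicate ranges of 23 did not overlap. Neighbours in the order were tested by an exact two-sided sign-flip permutation test over the 3 within-replicate log2 differences, which cannot give a p below 0.25, so none of the 7 could pass a threshold. The order was itself taken from these values, so the tests give no separate evidence for it. The step from EIF3B to EIF4G1 was 0.45 ± 0.077 on the log2 scale (SD, n = 3), higher in 3 of 3 replicates (exact p = 0.25, adjusted p = 0.438). The step from EIF5A to EIF4EBP1 was 0.58 ± 0.22 and that from EIF6 to EIF4E was 0.97 ± 0.20 (SD, n = 3), each in 3 of 3 replicates with the same exact p and adjusted p. These 3 steps were those whose replicate ranges did not overlap. EIF4G1 was above EIF4A1 in 3 of 3 replicates, but the ranges overlapped and the step of 0.14 ± 0.14 (SD, n = 3) was no larger than its spread. EIF4A1 and EIF5A kept their order in 2 of 3 replicates (exact p = 0.5, adjusted p = 0.7). EIF4EBP1 and EIF2S1, at 10.5 each, and EIF2S1 and EIF6 also kept it in 2 of 3 (exact p = 0.75, adjusted p = 0.75). The Poisson intervals within both of these pairs overlapped in every replicate. EIF4EBP1 was above EIF6 in 3 of 3 replicates, at 10.04 against 9.17, 9.24 against 8.95 and 12.3 against 10.5, with overlapping ranges.

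Replicate 2 gave the lowest fold enrichment at 8 of 8 genes, against 51.0% of the places found in all 3 replicates. Replicate 1 was highest at 5 genes and replicate 3 at EIF4E, EIF4EBP1 and EIF6. The ratio of replicate 1 to replicate 2 ran from 1.02 at EIF6 to 1.58 at EIF4A1, and its median over all places shared by the 3 lists was 1.14. The coefficient of variation over replicates ranged from 6.37% at EIF5A to 22.3% at EIF4A1, around the median of 15.0% over shared places.

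The local background behind the fold enrichment was then compared. It was recovered from the deposited values, and the lowest value in a list was taken as that list's genome-wide level. At 13 of the 24 leading peaks it was at that level, which included each peak of EIF4E, EIF4A1 and EIF5A. Over all peaks the median background was 1.16, 1.05 and 1.06 times the level in replicates 1, 2 and 3. The share of all peaks at the level was not determined, so the count is not shown to be particular to these genes. At EIF4G1, EIF2S1 and EIF3B the mean was 1.05 ± 0.077, 1.02 ± 0.028 and 1.11 ± 0.033 times the level, and at EIF4EBP1 it was 1.17 ± 0.16 (SD, n = 3). EIF6 stood apart, at 2.21, 1.91 and 1.92 times, a mean of 2.01 ± 0.17 (SD, n = 3). Over all peaks of chromosome 20 the median was 2.07, 1.90 and 1.89, so the background of EIF6 was close to that of its chromosome. The EIF6 summits held 166, 108 and 105 fragments, more than the 146, 100 and 88 of EIF5A in each replicate, although their fold enrichment was lower. Over the genome-wide level in place of the local background, EIF6 had a fold of 17.8 ± 1.63 (SD, n = 3), moved from place 7 to place 4 in the order and exceeded 97.5% ± 0.336 of its list, against 91.0% ± 1.01 over the local background (SD, n = 3). EIF4E, in contrast, fell from 55.4% ± 17.8 to 40.9% ± 19.3 (SD, n = 3), since other peaks of its lists gained.

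**Figure D3:**
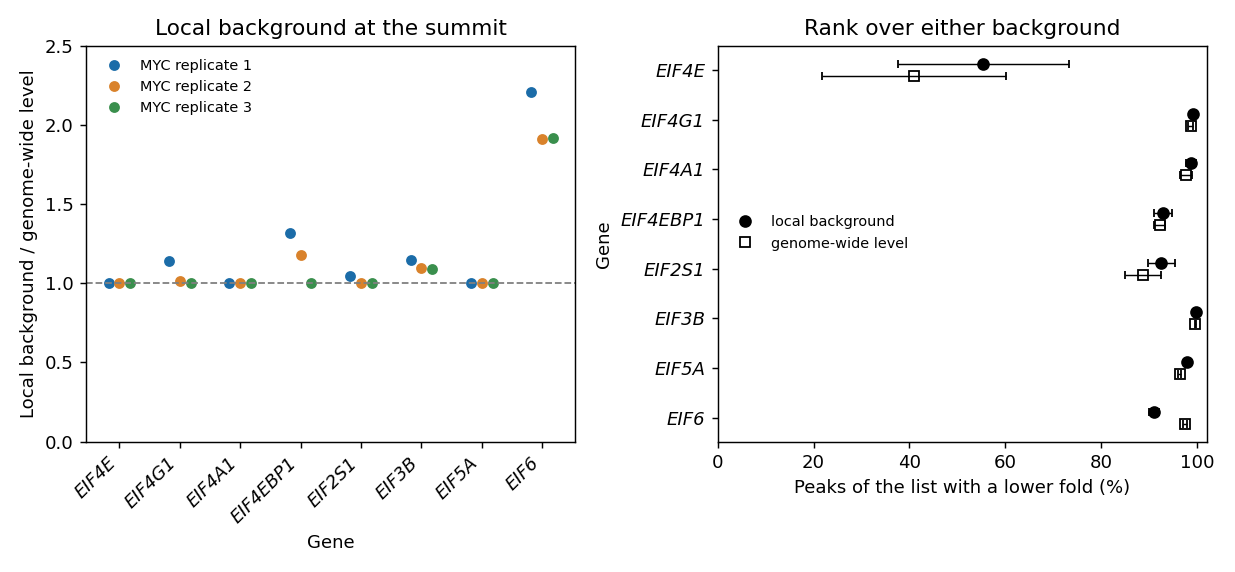
Left, local background at the leading summit of each gene relative to the lowest background of its MYC list (y axis, ratio). Right, the percent of peaks in the same list with a lower fold (x axis), as mean and SD over 3 replicates, with the fold taken over the local background (filled circles) or over the genome-wide level (open squares). EIF6 was at 1.91 to 2.21 times the genome-wide level and ranked higher over that level, whereas the other genes were at 1.32 times or less.

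The surroundings of the genes differed. EIF4E, EIF4EBP1 and EIF2S1 each had the only place found in at least 2 replicates within 50 kb of the start. Downstream of EIF4E the next such place was 4169385 bp away, and upstream it was 65790 bp away. EIF4G1, EIF4A1, EIF3B and EIF5A lay in stretches with 6, 4, 3 and 4 such places, and in each the place at the initiation factor was the strongest. The highest other place had a mean fold enrichment of 8.38 near EIF4G1, 9.28 near EIF4A1, 12.2 near EIF3B and 7.31 near EIF5A. At EIF6, which had 7 places within 50 kb, a stronger one lay 22779 bp upstream, on chromosome 20 from 33895568 to 33896857 (hg19). Its fold enrichment was 21.6, 19.99 and 18.4, a mean of 20.02 ± 1.60 (SD, n = 3), so the EIF6 place was the second in its stretch. The gene at that position was not determined, as no hg19 annotation was used here.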

How the data were processed

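Per the study's methods, the authors aligned the reads with Bowtie2 (hg19) and called peaks library by library in MACS2 (q-value threshold 0.05). Tool versions, the control library and the handling of duplicate reads were not given in these sources. The deposited values are the summit's fold enrichment (a ratio with 1 added to both terms), the −log10 p-value and −log10 q-value, and a score, which is 10 times the −log10 q-value cut to a whole number. The deposited positions are counted from 0 and are printed here from 1.

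Fragments and local background were recovered from the fold and the −log10 p-value, with a match within 0.001 for 100% of peaks. The lowest background of a list was its genome-wide level. Peaks of the lists sharing 1 bp or more were joined into places. A gene's leading place was the strongest among those with a summit within 5 kb in the largest number of replicates. Recovery, merging and assignment were tested on simulated data with 15000 peaks, 14000 places and 200 starts, and 100% of each were recovered. Analyses used Python 3.11.15, NumPy 2.4.6 and SciPy 1.17.1, with Benjamini-Hochberg adjustment over 7 neighbour pairs. Strands came from GENCODE 44. All 8 genes are named. The genes, lists and tests were chosen with earlier results of these data known. Alternatives were other distances, q-values, backgrounds, ranks, motifs and leaving out each replicate.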

Additional observations from a re-analysis of the deposited data

How the results depend on the processing

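Of 38 alternative values, all planned, 29 stayed close to the value reported and 9 moved. The order of the genes was scored by the number of neighbour pairs kept across the replicates used, 4 in the main order and 4 or 5 in the alternatives. That score does not register genes changing places, so the changes of place given below count among the 29. The 8 genes with a peak in every replicate became 5 with summits within 1 kb, and stayed 8 at q-values of 0.01 and 0.001, within 10 kb, with 2 of 3 replicates and without each replicate. The median fold enrichment of 13.1 became 11.4 with the summit nearest to the start, 15.1 with nothing added to fragments and background and 16.7 over the genome-wide level, and ranged from 12.95 to 13.6 without each replicate. The median rank of 95.4% became 92.7% with the nearest summit, 93.0% among peaks of places found in all 3 replicates and 96.9% over the genome-wide level. Both values with the nearest summit rest on EIF5A, where the weak peak of replicate 2 replaces the strong one and the mean falls to 12.2 ± 6.71 (SD, n = 3). The 2 genes with CACGTG became 4 with CACGCG added, which 20.3% of all genes hold, and 4 of 7 with CANNTG, which 73.1% of all genes hold. EIF4EBP1 and EIF2S1 changed places without replicate 3 and with nothing added, and EIF2S1 and EIF6 changed places without replicate 1. Over the genome-wide level, EIF6 rose from place 7 to place 4, above EIF5A, EIF4EBP1 and EIF2S1.

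No paired analysis was possible because the IgG libraries, which carry the same replicate numbers as the MYC libraries, have no peak list among the files used here. Precision is limited by 3 libraries and, at EIF4E, by 26 to 41 fragments.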
